A study of Mus musculus with 4 samples.

Results

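The genes described here are those of the insulin-like growth factor (IGF) binding proteins Igfbp2, Igfbp3, Igfbp4, Igfbp5, Igfbp6 and Igfbp7, together with Igf2r, the gene of the receptor that binds IGF2. They were chosen by name, and all 7 were found among the 53647 genes of the count tables. RNA was sequenced from mouse primary myotubes of WT genotype, grown from limb muscle myoblasts of pups 2 to 3 days old, in 2 control libraries and 2 libraries of myotubes given EDA-A2. EDA-A2 is a form of ectodysplasin, a ligand of the TNF family that acts on the receptor EDA2R, and it was added at 250 ng/mL for 24 h after 48 h of differentiation, with harvest of all cells at 72 h. What the control myotubes received is not stated. Whether the 2 libraries of a condition came from separate cultures or animals is not stated, so p-values measure only the spread between these libraries, which may be technical. The cells are cultured myotubes of newborn muscle, without the vessels and nerves of a muscle in place. Per the paper, the differentiation medium held horse serum, and any IGF binding proteins in that serum were not measured here.

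IGF1 and IGF2 promote the growth and differentiation of muscle cells through the IGF1 receptor. The IGF binding proteins are secreted proteins that hold IGFs in the medium or the matrix, where they can keep them from the receptor or store them and release them when a protease cuts the binding protein, and several also act without IGF. Igfbp5 is known as the binding protein that cultured muscle cells raise as they differentiate. The product of Igf2r does not signal as a growth factor receptor: it takes up IGF2 for breakdown in lysosomes and carries newly made lysosomal enzymes that bear mannose 6-phosphate.

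The members lie on 5 chromosomes of the GRCm39 assembly. Igfbp2 (ENSMUSG00000039323, chromosome 1 from 72863606 to 72891634, plus strand, 4 exons in the canonical transcript) and Igfbp5 (ENSMUSG00000026185, chromosome 1 from 72897091 to 72914043, minus strand, 4 exons) end towards each other with 5457 bp between them. Igfbp3 (ENSMUSG00000020427, 7156086 to 7164179, minus strand, 5 exons) and Igfbp4 (ENSMUSG00000017493, 98932064 to 98945218, plus strand, 4 exons) are both on chromosome 11 but far apart. Igfbp6 (ENSMUSG00000023046) lies on chromosome 15 from 102052697 to 102057953, Igfbp7 (ENSMUSG00000036256) on chromosome 5 from 77493130 to 77555931, and Igf2r (ENSMUSG00000023830), with 48 exons, on chromosome 17 from 12901293 to 12988614. Of the exonic bases of Igfbp7, 747 are shared with Polr2b on the opposite strand. For Igfbp3 22 and 120 bases are shared with a pair of antisense noncoding genes, Gm36565 and Gm73927, which are absent from the count tables. The paper names a stranded library kit, but the strand option of the counting is not stated. The counts of Igfbp7 and Igfbp3 are uncertain to that extent. Airn, the noncoding antisense RNA that silences the paternal copy of Igf2r, starts inside Igf2r but shares none of its exonic bases.

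The promoter windows of 3 genes are shown because Igfbp5 and Igfbp4 had the lowest fold changes of the 7 and Igfbp7 the highest. Each runs from 250 bases before to 50 bases after the start of the canonical transcript, 5′ to 3′ on the strand of the gene, read from GRCm39: chr1:72913994-72914293 (minus) for Igfbp5, chr11:98931814-98932113 (plus) for Igfbp4 and chr5:77555865-77556164 (minus) for Igfbp7. Capitals mark matches on either strand to the TATA box letters TATAAA or their near form TTTAAA, to the E-box CANNTG that myogenic factors bind, and to the κB consensus, the motif of NFκB proteins.
Igfbp5: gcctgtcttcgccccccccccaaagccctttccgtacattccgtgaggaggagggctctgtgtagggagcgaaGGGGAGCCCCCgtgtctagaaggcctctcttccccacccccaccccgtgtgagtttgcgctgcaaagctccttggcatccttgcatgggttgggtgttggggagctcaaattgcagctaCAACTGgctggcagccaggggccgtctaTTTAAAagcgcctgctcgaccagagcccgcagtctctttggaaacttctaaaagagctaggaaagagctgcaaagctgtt
Igfbp4: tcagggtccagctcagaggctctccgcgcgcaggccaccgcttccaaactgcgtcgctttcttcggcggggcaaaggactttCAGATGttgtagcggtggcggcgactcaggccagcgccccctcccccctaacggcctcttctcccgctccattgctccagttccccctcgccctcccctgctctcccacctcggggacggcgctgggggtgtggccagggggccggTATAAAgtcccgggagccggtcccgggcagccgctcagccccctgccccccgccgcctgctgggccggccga
Igfbp7: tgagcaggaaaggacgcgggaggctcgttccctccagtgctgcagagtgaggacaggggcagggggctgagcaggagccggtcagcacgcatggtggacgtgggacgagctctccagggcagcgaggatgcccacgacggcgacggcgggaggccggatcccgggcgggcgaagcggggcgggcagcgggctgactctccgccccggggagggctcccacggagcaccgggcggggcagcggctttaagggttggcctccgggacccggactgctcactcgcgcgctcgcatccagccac
In the Igfbp5 window, TTTAAA begins 30 bases before the start and an E-box 58 bases before it, and 2 overlapping matches to the κB consensus lie together, the first beginning 177 bases before it. Igfbp4 has TATAAA 22 bases before its start and an E-box 168 bases before it. Igfbp7 holds none of these motifs, but has 4 matches to GGGCGG (not capitalised above). Of all 21770 such windows of protein-coding genes, 8.97% hold the κB consensus. TTTAAA occurs in 13.1% of them and, by the same search, TATAAA in 13.2%. An E-box is found in 70.6% of the windows and GGGCGG in 42.5%. Among the 7 members the κB consensus was found in Igfbp5 alone. G and C make up 58.3% of the window of Igfbp5, 71.3% of that of Igfbp4 and 73.0% of that of Igfbp7, against a median of 54.3% over all windows. These matches are descriptions of the letters, not of binding. RefSeq places the start of Igfbp3 256 bases further downstream than the annotation used here, so its window may not hold the promoter.

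Counts on genes summed to between 29444155 and 29746863 per library, and a count of 0 allows up to 3 counts, or 0.101 to 0.102 CPM (counts scaled to the total on genes), counting error only. The response to the ligand was present, as Nfkb2, a subunit of NFκB, had 1007 ± 1.61 normalized counts in control myotubes and 3734 ± 105 after EDA-A2 (mean ± SD, n = 2). A normalized count is the deposited count brought to a common library size with edgeR's TMM factors. All 10 myotube markers were expressed, with a summed level of 694927 to 724705 normalized counts in control and 527867 to 528360 in EDA-A2 libraries. EdgeR called 4 of them lower (Myh3, Myh8, Acta1 and Actn2) and 1 higher (Mymx). Of 6 myoblast markers, all tested, Cdh15 was called lower (log2 fold change -0.47) and Vcam1 higher (0.53). Over all genes tested, 4.57% were called. Of 10 fibroblast markers, Lum and Thy1 had 0 counts in every library, Col1a2 had 12 to 21 counts and Dpt 2 or 3, while Col3a1 had 38820 to 45682. Pdgfrb was called lower (log2 fold change -0.45, adjusted p = 0.0125 in edgeR), and Col1a1 had 9004 and 5046 counts in control and 4769 and 5904 in EDA-A2 libraries, Control replicate 1 standing apart (log2 fold change -0.46, adjusted p = 0.221 in edgeR). Dcn, with 73 and 99 counts in control and 138 and 111 in EDA-A2 libraries, had a log2 fold change of 0.48 (adjusted p = 0.267 in edgeR). That of Pdgfra was 0.16. The summed fibroblast level, mostly Col3a1, was 51121 and 52997 in control and 48430 and 49272 in EDA-A2 libraries. Endothelial markers summed to 146.3 to 161.3 normalized counts in control and 168.1 to 183.3 in EDA-A2 libraries, with Emcn at 0. Macrophage markers, mostly Mrc1, came to 274.3 to 309.1 and 330.2 to 439.1, with at most 1 count of Adgre1. Of 8 such markers 4 were tested, all 4 with a log2 fold change above 0, and 0 were called by edgeR or DESeq2. In edgeR 2 had an unadjusted p under 0.05, Cd14 (0.94) and Itgam (0.92), with at most 39 counts in any library. In DESeq2 0 did. Markers of dividing cells were present in every library, summing to 22727 and 26997 in control and 25375 and 24925 in EDA-A2 libraries.

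All 7 genes were expressed in every library, and their levels spread over a wide range. Levels are compared between genes per length, as RPKM, the CPM of a gene divided by its exonic kilobases. Igfbp5 stood far above the rest, with 299.3 and 335.7 RPKM in control and 250.2 and 255.7 RPKM in EDA-A2 libraries, which put it 87th of the 15103 tested genes with a known length. Igf2r was next with 54.96 to 59.3 RPKM over the 4 libraries, and Igfbp3 followed with 34.4 to 39.2. Igfbp7 lay between 12.6 and 17.6 RPKM. Igfbp2 (7.68 to 8.59) and Igfbp4 (5.96 to 8.91) overlapped in level, so their order is not beyond the spread of the libraries. Igfbp6 was the lowest, with 1.25 to 1.70 RPKM. With the length of the canonical transcript in place of all exonic bases, an alternative chosen after seeing the data, the order of the 7 means was the same, with Igfbp2 at 13.0 and Igfbp4 at 8.58 RPKM.

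**Figure D1:**
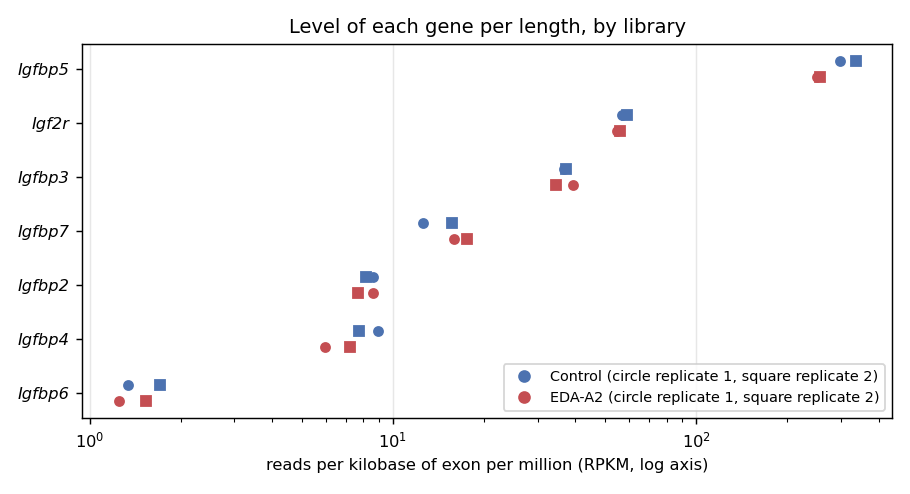
Levels of the 7 genes in each of the 4 libraries, in RPKM on a log axis, ordered by mean level. Igfbp5 lies at 250.2 to 335.7 RPKM, 5.02 times the mean of Igf2r, and Igfbp6 at 1.25 to 1.70 RPKM, while Igfbp2 and Igfbp4 overlap.

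Igfbp5 made up most of the Igfbp transcripts, per length. Its share of the summed RPKM of Igfbp2 to Igfbp7 was 81.5% and 82.6% in control and 77.9% and 78.9% in EDA-A2 libraries. Igfbp3 made up 9.99% and 9.19% in control and 12.2% and 10.6% after EDA-A2. The share of Igfbp7 was 3.43% and 3.85% in control and 4.95% and 5.41% after EDA-A2. The shares of Igfbp5, Igfbp7 and Igfbp3 did not overlap between conditions. Nor did those of Igfbp2, at 2.34% and 2.01% in control and 2.67% and 2.37% after EDA-A2, while those of Igfbp4 and Igfbp6 overlapped. Normalized counts of Igfbp2 and Igfbp3 did overlap, and 45.0% of all genes tested had normalized counts that did not. Shares of one whole are tied to each other, so a lower share of one gene raises the others. The log2 ratio of Igfbp5 to the sum of the other 5 was 2.13 and 2.25 in control and 1.82 and 1.90 in EDA-A2 libraries, a difference of -0.33 (two-sided exact permutation test, p = 0.333, the smallest that 2 libraries against 2 allow). The summed RPKM of those other 5 was 68.2 and 70.6 in control and 70.8 and 68.4 in EDA-A2 libraries, so their total overlapped between the conditions.

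**Figure D2:**
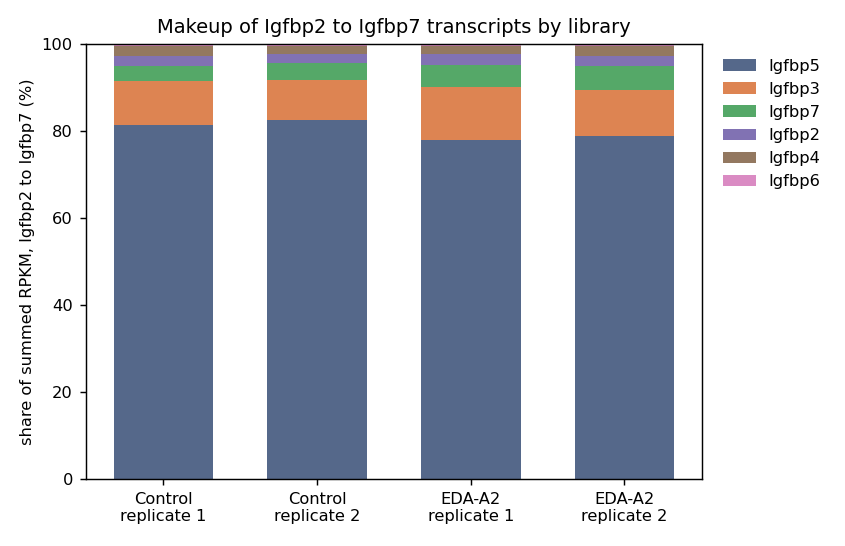
Share (%) of each gene in the summed RPKM of Igfbp2 to Igfbp7, one stacked bar per library. The Igfbp5 segment is 81.5% and 82.6% of the control bars and 77.9% and 78.9% of the EDA-A2 bars.

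EDA-A2-treated myotubes had less Igfbp5 mRNA. Normalized counts of Igfbp5 were 53220 and 59693 in control libraries, against 44481 and 45470 after EDA-A2. The conditions did not overlap, and the control libraries differed from each other more than the treated ones did. Its mean went from 56456 ± 4577 down to 44975 ± 699 (SD, n = 2). The quasi-likelihood test of edgeR put the log2 fold change at -0.33 with a standard error of 0.07 and an adjusted p of 0.0192 (Benjamini-Hochberg over all genes tested). That is a change of -20.3%, with a 95% interval from -28.7% to -11.0%. DESeq2 gave the same log2 fold change, -0.33, with an adjusted p of 0.00140. In bulk RNA, fewer cells of a type and less RNA per cell cannot be told apart. The summed myotube markers, mostly Myh3, Acta1 and Myh8, and the fibroblast marker Pdgfrb were lower in both EDA-A2 libraries too. Of the 10 myotube markers, 9 had a log2 fold change below 0, with Mymk at -0.01. The 1 above it was Mymx, called higher at 1.22. Of the 7 fibroblast markers tested, 5 had a log2 fold change below 0 and 2 above it, Dcn (0.48) and Pdgfra (0.16). The part of these cells in the change of Igfbp5 was not tested.

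The call for Igfbp5 stood close to the threshold. It was not called when scaled to total counts (log2 fold change -0.27, adjusted p = 0.0502 in edgeR) or when every gene with at least 1 count was tested (-0.33, adjusted p = 0.158). Without Control replicate 1 the log2 fold change was -0.41 (adjusted p = 0.270), without Control replicate 2 -0.24 (0.223), without EDA-A2 replicate 1 -0.31 (0.131) and without EDA-A2 replicate 2 -0.35 (0.0915), from edgeR fits in which the library left alone in its condition is assumed to vary like the others. Without Control replicate 1 edgeR called 0 genes in the whole table, with 2179 at an unadjusted p under 0.05, and without Control replicate 2 also 0, with 2448.

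Igfbp5 was the only one of the 7 members called, against 4.57% of all 15173 genes tested, 2.13% being called lower and 2.45% higher. These were 323 lower and 371 higher genes, and under scaling to total counts 194 and 485, with the median log2 fold change of all genes at 0.053. All 7 members passed the filter on low counts. Their median log2 fold change was -0.07, and 6 were below 0, against a median of -0.0021 and 50.5% below 0 over all genes tested. Of the 6, Igfbp2, Igfbp3 and Igfbp6 changed direction with the setting. Normalized counts did not overlap between the conditions for 4 members, Igfbp4, Igfbp5, Igfbp7 and Igf2r, while 45.0% of all genes tested did not overlap. Unadjusted p-values were under 0.05 for 3 members, Igfbp4, Igfbp5 and Igfbp7, against 15.6% of all genes.

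**Figure D3:**
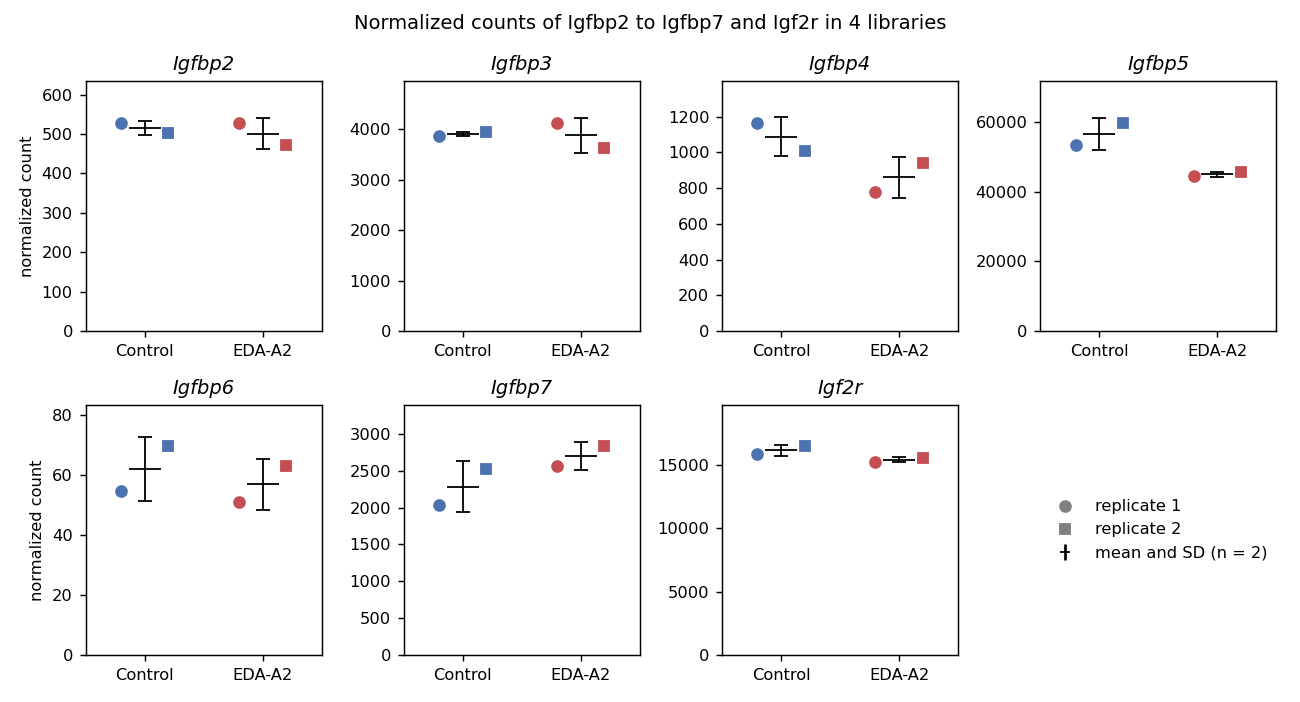
Normalized counts of the 7 genes in each library, with axes from 0. Points are libraries, and bars show the mean and SD of 2 libraries per condition. Igfbp5 is lower in both EDA-A2 libraries (44481 and 45470) than in both controls (53220 and 59693), and Igfbp2, Igfbp3 and Igfbp6 overlap.

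Igfbp4 encodes a binding protein known mainly as an inhibitor of IGF action until the protease pappalysin cuts it. It had 1166 and 1010 normalized counts in control and 780.2 and 942.5 in EDA-A2 libraries. Both treated libraries were below both controls, but the gap between the nearest pair was smaller than the difference within either condition. The log2 fold change of Igfbp4, -0.34 (standard error 0.10, 95% interval -0.56 to -0.12), was as large as that of Igfbp5 at a much lower level, and its adjusted p was 0.0850 in edgeR. Igfbp4 was called without EDA-A2 replicate 2 (log2 fold change -0.48, adjusted p = 0.0392 in edgeR), and its log2 fold change was -0.21 without EDA-A2 replicate 1.

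Igfbp7 encodes a protein of low affinity for IGF that is also found in the matrix of vessels. Its fold change was the highest of the 7, with 2036 and 2526 normalized counts in control and 2564 and 2831 in EDA-A2 libraries. The nearest libraries, Control replicate 2 and EDA-A2 replicate 1, differed little, and Control replicate 1 was well below the rest. That library was also the lowest in the summed markers of dividing cells, given above, and of smooth muscle and pericytes, which came to 16340 and 19856 in control and 21891 and 20356 in EDA-A2 libraries. Nearly all of that sum was Acta2, with 15717 and 19186 in control and 21210 and 19695 in EDA-A2 libraries. Of the 7 smooth muscle and pericyte markers, 5 were tested and 0 called by edgeR or DESeq2, with 2 and 1 at an unadjusted p under 0.05. The 2 in edgeR had opposite signs, Acta2 at a log2 fold change of 0.23 and Cspg4 at -0.86. Summed endothelial markers, mostly Vwf, were 146.3 and 161.3 in control and 183.3 and 168.1 in EDA-A2 libraries, again with Control replicate 1 lowest, and of 8 such markers 2 were tested and 0 called by edgeR, with 0 at an unadjusted p under 0.05. The part of these cells in the values of Igfbp7 was not tested. The log2 fold change of Igfbp7 was 0.24 (standard error 0.09, 95% interval 0.04 to 0.44, adjusted p = 0.192 in edgeR). Without Control replicate 1 it was 0.10 and without Control replicate 2 it was 0.41. Polr2b, which overlaps it on the other strand and encodes a subunit of RNA polymerase II, had 3679 and 3721 counts in control and 4083 and 3965 counts in EDA-A2 libraries (log2 fold change 0.07, adjusted p = 0.721 in edgeR).

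**Figure D4:**
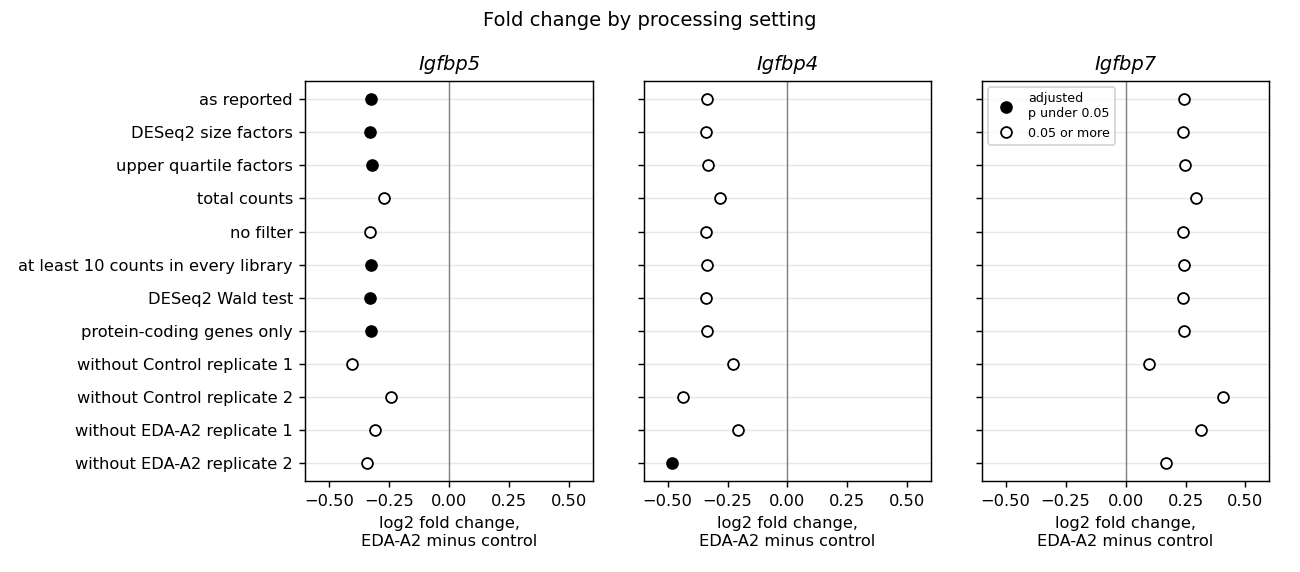
Log2 fold change of Igfbp5, Igfbp4 and Igfbp7 under each processing setting but the replicate block, filled where the adjusted p is under 0.05. The replicate block, with which all 3 were called, is given in the closing section. Igfbp5 stays between -0.41 and -0.24, Igfbp4 between -0.48 and -0.21 and Igfbp7 between 0.10 and 0.41.

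Igfbp2, Igfbp3 and Igfbp6 were not called. Igfbp3, the main carrier of IGFs in blood, had 3874 and 3943 normalized counts in control and 4132 and 3634 in EDA-A2 libraries, and the controls lay between the treated libraries. The 95% interval of its log2 fold change ran from -0.17 to 0.15. Igfbp2, a binding protein that can also bind integrins, had 528.5 and 503.2 in control and 528.3 and 472.7 in EDA-A2 libraries (interval -0.26 to 0.18), and its signal overlapped although it is the neighbour of Igfbp5. Whether the changes of these neighbours differ was not tested. Igfbp6, which prefers IGF2 to IGF1, had 54.6 and 69.6 in control and 51.0 and 62.9 in EDA-A2 libraries, and at this depth its interval was wide, from -0.66 to 0.41. The direction of the fitted change of each of these 3 genes depended on the setting: it was above 0 for Igfbp2 (0.012) and Igfbp3 (0.046) under scaling to total counts. Without EDA-A2 replicate 2 these genes were at 0.033 and 0.079, and Igfbp6 was at 0.061 without Control replicate 2 and at 0.019 without EDA-A2 replicate 1.

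Igf2r had 15837 and 16457 normalized counts in control and 15247 and 15526 in EDA-A2 libraries. Both treated libraries were below both controls by a small margin, a log2 fold change of -0.07 (standard error 0.07, 95% interval -0.21 to 0.07, adjusted p = 0.711 in edgeR). In percent, that interval of Igf2r runs from -13.6% to 5.15%. Airn had 987.0 and 896.5 normalized counts in control and 921.4 and 858.0 in EDA-A2 libraries, overlapping between the conditions. Among the other genes of the imprinted cluster, Slc22a2 and Slc22a3 had 0 counts in every library, and Mas1 had 33 and 42 counts in control and 49 and 33 in EDA-A2 libraries. Neither Airn nor Mas1 was called (adjusted p = 0.751 and 0.952 in edgeR).

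The genes around these members in the IGF system were taken from 5 lists with 72 genes in all, of which 57 were tested. Of those, 6 were called (10.5%, against 4.57% of all genes), 5 lower and 1 higher. Over the 57 the log2 fold changes had a median of -0.05, and 36 were below 0, against 50.5% of all genes tested. The lists were described by their counts alone.

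Among ligands and receptors, 4 of 8 genes were tested. Igf2, the IGF that Igf2r takes up, had 2526 and 2394 normalized counts in control and 1827 and 2054 in EDA-A2 libraries, and the conditions did not overlap. The log2 fold change of Igf2 was -0.34 with a standard error of 0.08 (adjusted p = 0.0178 in edgeR), and it was not called with no filter (adjusted p = 0.223), without either control library, where no gene was, or without EDA-A2 replicate 1 (log2 fold change -0.26, adjusted p = 0.350). The other tested genes of this list, singled out after their values were seen, were Igf1 (log2 fold change -0.06), Igf1r (0.03) and Insr (-0.14), the genes of the other IGF and of the receptors for IGF1 and insulin. Igf1 transcripts were much fewer than those of Igf2 per length, at 0.833 against 12.1 RPKM. Of the remaining 4, Ins1 had 0 counts, and Ins2, Insrr and Igfals had at most 5 counts in any library. Igfals encodes the subunit that holds Igfbp3 and Igfbp5 with IGF in blood.

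Of 13 other genes whose proteins carry an IGFBP-type domain, 8 were tested and 1, Htra3, a secreted serine protease, was called. It had 1531 and 1563 normalized counts in control and 1228 and 1230 in EDA-A2 libraries (log2 fold change -0.33, standard error 0.07, adjusted p = 0.0180 in edgeR). Libraries of each condition were close together and the conditions lay apart, but Htra3 was not called under scaling to total counts (adjusted p = 0.0579), with no filter (0.137) or without any 1 library (0.170 to 0.288, log2 fold change -0.34 to -0.32). Igfbp1, the one classical binding protein outside the set, lies 3540 bp from Igfbp3 and had 0 counts in all 4 libraries.

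Proteases that cut the binding proteins, and inhibitors of such proteases, made a list of 19 genes with 15 tested, 1 called higher and 2 lower. Mmp9, a matrix metalloproteinase that can cut several binding proteins, had 205.0 and 268.2 normalized counts in control and 937.1 and 919.9 in EDA-A2 libraries. Its log2 fold change of 1.97 had a standard error of 0.12 and an adjusted p of 1.16e-07 in edgeR. Adamts1, a secreted metalloproteinase, had 856.2 and 828.9 in control and 609.7 and 591.6 in EDA-A2 libraries (log2 fold change -0.49, standard error 0.09, adjusted p = 0.00412 in edgeR). Adamts1 was not called with no filter (adjusted p = 0.0878) or without Control replicate 1 (0.285), Control replicate 2 (0.191) or EDA-A2 replicate 2 (0.0578), by the same test. Stc2, whose product stanniocalcin 2 inhibits pappalysins, had 1318 and 1067 in control and 934.1 and 909.1 in EDA-A2 libraries (log2 fold change -0.37, standard error 0.10, adjusted p = 0.0441 in edgeR). Stc2 lost its call in 9 of the alternatives run, among them the DESeq2 test (adjusted p = 0.0609), upper quartile factors (adjusted p = 0.0559 in edgeR) and every fit without 1 library. Its log2 fold change was -0.21 without Control replicate 1 and -0.51 without Control replicate 2. The pappalysin genes themselves, named after their values were seen, were close to the threshold or low. Pappa2 had 620.2 and 652.4 in control and 829.2 and 764.6 in EDA-A2 libraries (log2 fold change 0.32, adjusted p = 0.0603 in edgeR), and it was called under scaling to total counts. Pappa had 44 to 64 counts per library and was not called (log2 fold change 0.35, adjusted p = 0.576 in edgeR).

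Of 14 partners of the binding proteins at the cell surface and in the matrix, 12 were tested and 1 was called. Spp1, which encodes osteopontin, a matrix protein that binds Igfbp5, had 47091 and 48306 normalized counts in control and 34858 and 35149 in EDA-A2 libraries (log2 fold change -0.45, standard error 0.07, adjusted p = 0.00108 in edgeR). Like Igfbp5 it was highly expressed, with a mean of 491.3 RPKM. Of the 12, 10 were below 0, against 50.5% of all genes tested, with a median log2 fold change of -0.15.

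**Figure D5:**
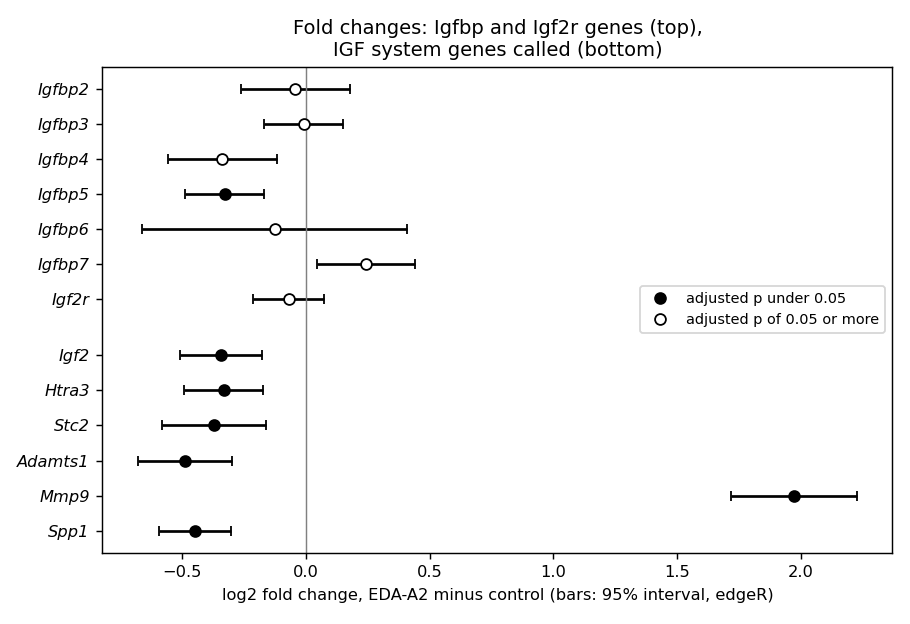
Log2 fold changes (EDA-A2 minus control) with 95% intervals from edgeR for the 7 members and for the 6 IGF system genes called. Filled points mark an adjusted p under 0.05, which Igfbp5 alone reaches among the members; Mmp9 lies at 1.97 and the other called genes lie between -0.49 and -0.33.

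The sorting route that Igf2r serves was tested with 18 genes, all of which passed the filter. EdgeR called 0 of them, with 3 at an unadjusted p under 0.05, and DESeq2 also called 0, with 2 at that level. The median log2 fold change was -0.01, and the genes lay between -0.20 and 0.22. M6pr, the gene of the other mannose 6-phosphate receptor, had 3177 and 3300 normalized counts in control and 3149 and 3376 in EDA-A2 libraries, so its control values lay between the treated ones. Vps26a, a subunit of the retromer that returns receptors from endosomes and the gene of this list with the smallest p-value, had 1917 and 1815 in control and 2175 and 2112 in EDA-A2 libraries (log2 fold change 0.20, adjusted p = 0.156 in edgeR).

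Genes whose pattern over the 4 libraries was most like that of Igfbp5 were sought among 9464 tested genes with a mean of at least 10 CPM. By the root mean square difference of log2 levels, each centred on its own mean, the nearest were Stim1, a calcium sensor of the sarcoplasmic reticulum (0.0150), Klhl13, an adaptor of a ubiquitin ligase (0.0203), and Mlip, a lamin-interacting protein of muscle (0.0205). Stim1 had 3670 and 4185 normalized counts in control and 3042 and 3105 in EDA-A2 libraries, with Control replicate 2 highest, as for Igfbp5. The log2 fold changes were -0.35 for Stim1, -0.36 for Klhl13 and -0.35 for Mlip. This likeness is a description over 4 libraries. The genes were chosen by it, so their fold changes and calls are not results separate from those of Igfbp5. Stim1, Klhl13 and Mlip were each called, but not with no filter, without either control library or without EDA-A2 replicate 1, and Stim1 also not without EDA-A2 replicate 2 (adjusted p = 0.0638 in edgeR). Mlip lost its call in 9 of the alternatives run, with an adjusted p of 0.126 by DESeq2.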

How the data were processed

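Bulk RNA sequencing libraries of mouse primary myotubes, 2 per condition, were grouped by the treatment in the labels. Per the paper and the submitters' processing notes, reads were checked with FastQC 0.11.9 and MultiQC 1.12, trimmed with Trim Galore 0.6.5, mapped to GRCm39 with STAR 2.7.3a and counted with HTSeq 0.11.1. The annotation release, the strand option and the test for differential expression are not given in the sources used here. The deposited values are raw counts of read pairs per Ensembl gene. HTSeq's summary lines, 12.2% to 13.0% of pairs, were left out.

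Symbols, positions, exonic lengths and promoter windows were taken from GENCODE and the GRCm39 genome (52610 of 53647 genes matched), and protein sequences were not used here. The test ran in R 4.3.3 on the counts, using the quasi-likelihood test of edgeR 4.0.16, not robust, with TMM factors and condition as the single term, after filterByExpr (minimum count 10, minimum total 15), and p-values were adjusted by Benjamini-Hochberg over 15173 genes at a threshold of 0.05. A standard error is the size of a log2 fold change over the root of its F value. Intervals for the difference are 95%, from the same fit and not adjusted for the number of genes. RPKM values use TMM-adjusted library sizes. Alternatives, including the DESeq2 1.42.0 Wald test, are given in the closing section. The scripts were tested on simulated counts with planted changes larger than those of any member. That test does not show how well changes as small as those of the members are found.

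The members and lists were chosen with earlier results of these data known. Genes named are all members, every called gene of an IGF system list (or, where none was called, that with the smallest p-value and that with the highest level), the imprinted cluster of Igf2r (in part, since a gene of it is not reported here), genes that overlap a member, Nfkb2 and Nfkbia as checks of the treatment, and the 3 genes most like a called member. Nfkbia rose by 1.43 on the log2 scale.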

Additional observations from a re-analysis of the deposited data

How the results depend on the processing

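The direction of Igfbp4, Igfbp5, Igfbp7 and Igf2r held under every alternative run. Igfbp5 (log2 fold change -0.33) was not called under scaling to total counts (-0.27) or with no filter (-0.33), where edgeR called 0 members, with 3 and 2 at an unadjusted p under 0.05, and at an adjusted p under 0.01 0 members and 339 genes were called. With no filter, 2 genes of the IGF system lists and 86 genes in all were called, instead of 6 and 694. Under total counts Igfbp2 and Igfbp3 turned to 0.012 and 0.046. With the replicate block, Igfbp4 (-0.34, adjusted p = 0.0307 in edgeR) and Igfbp7 (0.25, adjusted p = 0.0247 in edgeR) were also called, so that 3 members and 1066 genes passed, Pappa2 among the latter. The replicate numbers are shared by the labels only, and the correlation of the deviations of same-numbered libraries was 0.16 over genes with at least 10 CPM, so this block was not used in the comparison and changed no other call of a member. The canonical transcript length, chosen after seeing the data, kept the order of the members by level.

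Leaving out each library in turn gave -0.13 to 0.033 for Igfbp2, -0.10 to 0.079 for Igfbp3 (0.0045 without Control replicate 2), -0.48 to -0.21 for Igfbp4, -0.41 to -0.24 for Igfbp5, -0.29 to 0.061 for Igfbp6 (0.019 without EDA-A2 replicate 1), 0.10 to 0.41 for Igfbp7 and -0.10 to -0.04 for Igf2r. The sign turned for M6pr (-0.042 to 0.060) and Mas1 (-0.23 to 0.33) as well. Igfbp4 was called without EDA-A2 replicate 2 (adjusted p = 0.0392 in edgeR). The number of members called was 0 to 1, of IGF system genes 0 to 3 and of all genes 0 to 402. A fit on 3 libraries has 1 residual degree of freedom, and the cause of these changes was not tested.

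With 2 libraries per condition, no exact test of a single value can go below 0.333. A member that was not called is not shown to be unchanged, and the intervals give the range of changes that the fit allows. That of Igfbp6, the member with the fewest counts, was the widest of the 7.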
